A study of Mus musculus with 54 samples.

Results

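Adenylyl cyclases are the enzymes that make cyclic AMP (cAMP), and the mouse genome holds 9 membrane-bound forms, *Adcy1* to *Adcy9*. These 9 genes were taken by the match of their Ensembl identifiers to the symbols of GENCODE M21, and make up 9 of the 30031 genes in the table of read counts. All 9 passed the filter on low counts (1 read or more in over 6 of the 18 replicates) and are thus among the 18941 genes tested. The RNA came from the suprachiasmatic nucleus (SCN), the seat of the main circadian clock in the hypothalamus, cut out of brain sections by laser-capture microdissection. The mice were C3H/HeH males of 10 to 12 weeks. The names of the count columns mark every replicate as WT (wild type), and the labels name no transgene or drug. The mice were kept in 12 hr of light and 12 hr of darkness. They were killed at 1 of 6 zeitgeber times (ZT, hours after lights on), ZT2, ZT6, ZT10, ZT14, ZT18 or ZT22. Each timepoint had 3 replicates (A, B and C), each a pool of 5 mice, whose RNA was amplified before sequencing on 3 lanes, so the p-values describe the spread between pools and not between single mice.

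The replicates held between 15412981 and 35820945 counted reads, with a median of 25075231. In a principal component analysis of the 500 most variable genes, the timepoints fell into 3 pairs (ZT22 and ZT2, ZT6 and ZT10, ZT14 and ZT18). The median distance in log2 CPM on the first and the second component was 10.4 within a timepoint, 12.5 between the timepoints of a pair and 61.1 between pairs. The study names a sequencing batch as a further source of separation between its libraries. Its authors judged batch effects to be minimal, because most key clock genes peaked when they should. They also found quantitative PCR of SCN samples largely concordant with the sequencing. The labels do not say which libraries shared a batch, so that time and batch cannot be told apart here in a difference between pairs. Of 8 marker genes of SCN neurons (*Avp*, *Vip*, *Grp*, *Six6*, *Lhx1*, *Nms*, *Syt10* and *Prok2*), all 8 were read, with a summed level between 1481 and 5155 CPM (read counts scaled to the library total) in the 18 replicates. The tissue holds glia and other cells as well, and in such a bulk measurement fewer cells of a type and less RNA per cell cannot be told apart.

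Cyclases receive the signals of many receptors: the stimulatory G protein alpha subunit turns them on, and each form adds its own sensitivity. *Adcy1* and *Adcy8* encode the forms that calcium and calmodulin stimulate, and *Adcy3*, known from olfactory neurons and primary cilia, also responds to calmodulin. *Adcy2*, *Adcy4* and *Adcy7* encode forms that G protein beta-gamma subunits can stimulate further, *Adcy5* and *Adcy6* forms that calcium and inhibitory G proteins restrain, and *Adcy9* a form with little response to the plant diterpene forskolin. In the SCN, cAMP is raised by the neuropeptides VIP and PACAP and feeds back on the expression of clock genes through protein kinase A (PKA), Epac and the transcription factor CREB.

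The genes lie on 7 chromosomes (GRCm38, the build named mm10 by the authors). *Adcy1* spans chr11:7063489-7178506 (plus strand), *Adcy2* chr13:68620043-68999541 (minus), *Adcy3* chr12:4133103-4213525 (plus) and *Adcy4* chr14:55769057-55784095 (minus). *Adcy5* spans chr16:35154877-35305738 (plus), *Adcy6* chr15:98589973-98610076 (minus), *Adcy7* chr8:88272403-88329962 (plus), *Adcy8* chr15:64697084-64922296 (minus) and *Adcy9* chr16:4287529-4420498 (minus). The labels do not state a stranded library, and reads of an antisense neighbour cannot then be told apart from those of the gene. Exons of *Cenpo*, on the other strand, cover 22.1% of the exon bases of *Adcy3*, while the antisense genes *Gm35161* and *Gm29331* cover 4.49% of *Adcy2* and 8.92% of *Adcy6*.

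RefSeq promoters (250 bases before to 50 after a start, GRCm38.p6) matched 7 of the 9 genes, all but *Adcy6* and *Adcy8*, with 10 starts in all. They were searched on both strands for 4 elements tied to the clock or to cAMP: the E-box CACGTG that CLOCK and BMAL1 bind, the cAMP response element (CRE) TGACGTCA that CREB binds, the shorter site TGACG, which that element contains, and the D-box TTATGTAA. *Adcy1* holds the E-box, *Adcy9* and 1 of the 3 starts of *Adcy7* hold the shorter site, and no other window holds any of the 4. Among all 32851 promoters of this length, 7.15% hold the E-box, 20.8% the shorter site, 1.79% the full element and 0.938% the D-box. The 250 bases before the start are printed for *Adcy1* and *Adcy9*, with the element in capitals. They are also printed for *Adcy2*, the gene with the highest level per length, which holds none of the 4. *Adcy1* and *Adcy9* had r = 0.73 over the 18 replicates but hold different elements. *Adcy7*, which shares the shorter site with *Adcy9*, had r = -0.45 with *Adcy9* and is not printed. The letters are those of the reference genome, not of the C3H/HeH strain.
Adcy1 (chr11:7063183-7063432, plus strand): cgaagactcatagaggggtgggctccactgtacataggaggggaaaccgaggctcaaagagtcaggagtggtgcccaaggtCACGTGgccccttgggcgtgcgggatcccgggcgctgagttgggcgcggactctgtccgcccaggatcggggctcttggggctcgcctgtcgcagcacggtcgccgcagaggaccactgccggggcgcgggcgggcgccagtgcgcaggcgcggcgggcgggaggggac
Adcy9 (chr16:4420499-4420748, minus strand): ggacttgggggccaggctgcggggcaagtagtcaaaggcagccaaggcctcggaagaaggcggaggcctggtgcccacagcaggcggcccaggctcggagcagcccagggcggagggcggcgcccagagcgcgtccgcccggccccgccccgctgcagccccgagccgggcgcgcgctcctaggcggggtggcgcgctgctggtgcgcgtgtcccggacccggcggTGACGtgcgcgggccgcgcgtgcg
Adcy2 (chr13:68999542-68999791, minus strand): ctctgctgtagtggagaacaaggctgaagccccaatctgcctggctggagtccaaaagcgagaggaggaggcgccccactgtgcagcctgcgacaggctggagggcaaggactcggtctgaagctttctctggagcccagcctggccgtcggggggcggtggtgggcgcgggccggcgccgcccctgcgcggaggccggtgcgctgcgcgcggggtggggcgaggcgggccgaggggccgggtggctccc
The E-box of *Adcy1* begins 169 bases before the RefSeq start, which lies 56 bases upstream of the GENCODE start, and the shorter site of *Adcy9* begins 24 bases before its start. In *Adcy7* the shorter site lies on the other strand, 28 bases before a start that is 10589 bases downstream of the GENCODE gene start. These are matches of letters and not measured binding sites.

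Which cyclase dominates was asked first. Levels of different genes are given as CPM divided by the kilobases of each gene's merged exons (CPM per kb), and as the share of each gene in the sum over the 9. Over the 18 replicates, *Adcy2* had the highest level, 22.8 ± 8.09 CPM per kb (SD, n = 18), which is 38.6% ± 10.6 of the sum. *Adcy5* followed at 15.3 ± 9.17 CPM per kb and *Adcy1* at 10.02 ± 8.70. These 3 genes together made up between 66.6% and 83.7% of the sum in each replicate. The other 6 lay well below, with *Adcy9* at 3.70, *Adcy3* at 3.39, *Adcy6* at 2.82, *Adcy8* at 1.49, *Adcy7* at 1.22 and *Adcy4* at 0.506 CPM per kb. Among 15107 protein-coding genes, 85.4% had a lower mean level per kb than *Adcy2*, but only 19.6% a lower level than *Adcy4*.

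Neighbours in this order were compared by the log2 ratio of their CPM per kb within each replicate (two-sided sign-flip permutation test, 100000 resamples, Benjamini–Hochberg adjustment over 8 pairs). *Adcy2* exceeded *Adcy5* by 0.70 ± 0.84 (log2, SD, n = 18) and in 14 of 18 replicates, with an adjusted permutation p of 0.00611. *Adcy5* exceeded *Adcy1* by 0.91 ± 0.93 in 15 of 18 (adjusted permutation p = 0.00352), and *Adcy1* exceeded *Adcy9* by 1.19 ± 0.85 in 17 of 18 (adjusted permutation p = 0.00032). Below them, *Adcy9*, *Adcy3* and *Adcy6* did not differ beyond their spread, since *Adcy9* was higher than *Adcy3* in 8 of 18 replicates and *Adcy3* higher than *Adcy6* in 10 of 18 (adjusted permutation p = 0.904 for both). *Adcy8* and *Adcy7* did not differ beyond their spread either (13 of 18, adjusted permutation p = 0.904). *Adcy6* lay above *Adcy8* in 16 of 18 (adjusted permutation p = 0.00032) and *Adcy7* above *Adcy4* in 15 of 18 (adjusted permutation p = 0.00352). The replicates of 6 timepoints were pooled here, so the order describes the day as a whole. That order was taken from the mean levels of the same replicates that were then compared. The test treats the 18 replicates as independent, although the ratios also varied between timepoints.

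The order rests on the length that the reads are divided by. The merged exons of *Adcy1* measure 12522 bases, of which 3354 are coding, and those of *Adcy2* 4211, of which 3285 are coding. Per kilobase of coding sequence, *Adcy1* rose to first place with 37.4 ± 32.5 CPM per kb, against 29.3 ± 10.4 for *Adcy2* and 29.0 ± 17.4 for *Adcy5*. The mean shares were then 27.1%, 27.0% and 24.2%, and *Adcy2* still led in 9 replicates, *Adcy5* in 5 and *Adcy1* in 4. The 3 leading genes stayed the same under merged exons, longest transcript and coding bases, and with the longest transcript *Adcy2* kept first place, with 37.4% of the sum.

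**Figure D1:**
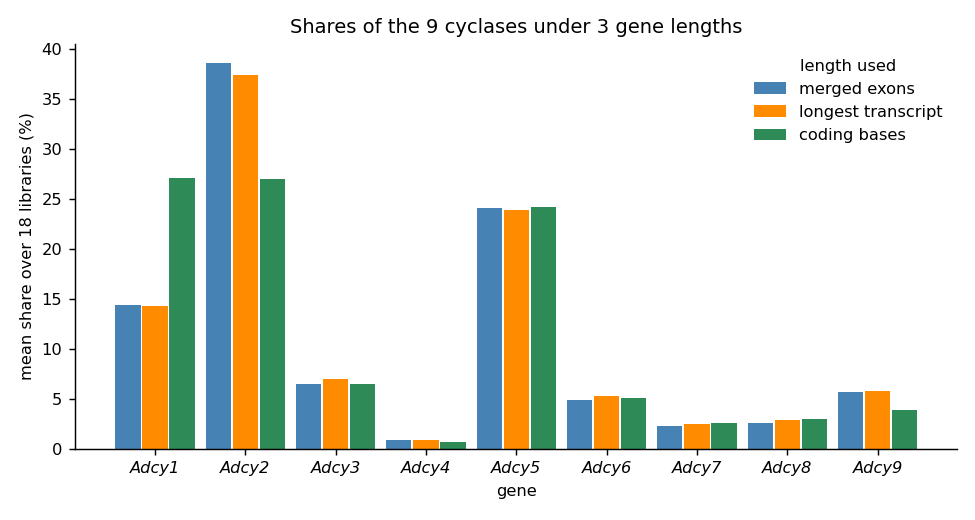
Mean share of each of the 9 adenylyl cyclases in their summed level over 18 replicates, in percent, with the CPM of each gene divided by the length of its merged exons, its longest transcript or its coding bases. *Adcy2*, *Adcy5* and *Adcy1* are the 3 highest bars under each length, and *Adcy2* falls from 38.6% to 27.0% while *Adcy1* rises from 14.4% to 27.1% when only coding bases count.

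The gene with the highest mean level also differed between timepoints. This was not tested, and time and batch cannot be told apart where it differed between pairs. Per kilobase of merged exons, *Adcy2* led at ZT2, ZT6, ZT10 and ZT22, in each case with all 3 replicates above those of the second gene, at 34.5 ± 6.42, 18.7 ± 3.65, 18.98 ± 1.78 and 31.5 ± 2.67 CPM per kb (SD, n = 3). At ZT14 *Adcy5* was first with 28.7 ± 14.8 CPM per kb, before *Adcy1* with 19.1 ± 4.97 and *Adcy2* with 17.97 ± 1.12, and at ZT18 *Adcy5* with 16.6 ± 5.79 was close to *Adcy2* with 15.3 ± 2.31. The replicates overlapped at both of these timepoints, and *Adcy5* exceeded the second gene in 2 of 3 replicates each time. Per kilobase of coding sequence the leader turned at both ZT14 and ZT22, where *Adcy1* came first with 71.5 ± 18.6 CPM per kb, before *Adcy5* with 54.4 ± 28.1, and with 77.2 ± 43.9, before *Adcy2* with 40.3 ± 3.42. The replicates of these genes overlapped, and *Adcy1* exceeded the second gene in 1 of 3 replicates at ZT14 and in 2 of 3 at ZT22. *Adcy2* stayed first at ZT2, ZT6 and ZT10 (with overlap at ZT10) and *Adcy5* at ZT18 (with overlap). In single replicates, per kilobase of merged exons, *Adcy2* led in 13, *Adcy5* in 4 and *Adcy1* in 1 of 18. The share of *Adcy2* was 47.7% ± 6.55 at ZT2 and 22.3% ± 2.78 at ZT14, that of *Adcy1* 6.05% ± 1.43 at ZT6 and 24.4% ± 10.3 at ZT14. The sum over the 9 genes was lowest at ZT6 (39.4 ± 2.95 CPM per kb) and ZT10 (41.7 ± 0.284) and highest at ZT22 (81.9 ± 14.5) and ZT14 (81.6 ± 11.3), with 72.1 ± 3.98 at ZT2 and 50.9 ± 6.38 at ZT18.

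**Figure D2:**
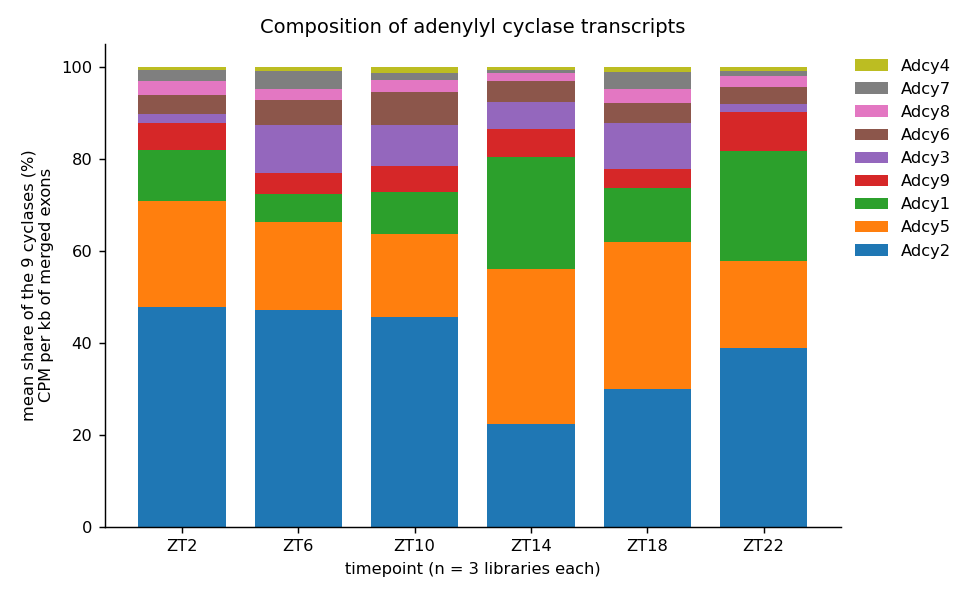
Mean share of each adenylyl cyclase in the summed CPM per kb of merged exons at each of the 6 timepoints, in percent, as stacked bars of 3 replicates each. *Adcy2* is the largest part at ZT2, ZT6, ZT10 and ZT22, and *Adcy5* at ZT14 (33.9%) and ZT18 (32.0%), while per kilobase of coding sequence *Adcy1* has the highest mean level at ZT14 and ZT22.

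Whether each gene changed with time was tested next, with edgeR's quasi-likelihood F-test of the 6 timepoint means, adjusted by Benjamini–Hochberg over all tested genes. Of the 9 cyclases, 6 changed (*Adcy1*, *Adcy2*, *Adcy3*, *Adcy5*, *Adcy7* and *Adcy9*), and *Adcy4*, *Adcy6* and *Adcy8* did not pass. Of all tested genes, 44.0% passed the same test. A call of cycling also needed p below 0.05 in JTK_CYCLE, a rank test for a 24-hr rhythm. Both criteria were met by *Adcy2* alone among the cyclases, and by 29.8% of all tested genes.

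Of the forms that respond to calcium and calmodulin, *Adcy1* and *Adcy3* changed and *Adcy8* did not pass. *Adcy1* was read at 206, 202 and 311 CPM in replicates A, B and C at ZT14, at 62.5, 69.4 and 94.0 at ZT18, at 89.8, 329.7 and 357 at ZT22 and at 125, 79.1 and 99.3 at ZT2. At ZT6 it was read at 34.7, 27.2 and 26.5 CPM and at ZT10 at 35.8, 30.8 and 77.5. It was thus high at ZT14 and at ZT22, with replicate A at ZT22 standing at the level of ZT2 and ZT18, and low at ZT6 and ZT10. The mean at ZT22, 259 ± 147 CPM (SD, n = 3), was 8.79-fold that at ZT6, 29.5 ± 4.51, and the change with time had an adjusted p of 3.01e-05 in edgeR, the smallest of the 9 genes. JTK_CYCLE, which looks for 1 peak a day, gave *Adcy1* an exact p of 0.144.

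*Adcy8* ran between 7.46 ± 1.73 CPM at ZT6 and 17.7 ± 1.64 at ZT2 and did not pass (adjusted p = 0.701, edgeR). It was read at 12.96, 22.6 and 0 CPM at ZT18, where replicate C had 0 of 15412981 reads, which allows up to 0.195 CPM (3 reads, counting error only). Without that replicate the adjusted p of *Adcy8* was 0.0126 (edgeR). *Adcy3* was read at 13.9, 3.82 and 5.23 CPM at ZT22 and at 4.98, 9.38 and 11.9 at ZT2. It stood at 42.3, 23.3 and 25.6 CPM at ZT14 and at 29.4, 35.1 and 29.2 at ZT18. Every replicate at ZT2 and ZT22 thus lay below every replicate of the other 4 timepoints, whose lowest was 14.7 CPM, and the change passed (adjusted p = 0.00279, edgeR). *Cenpo*, whose exons overlap *Adcy3*, lay between 2.70 and 15.3 CPM and did not pass (adjusted p = 0.314).

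Among the forms that beta-gamma subunits stimulate, *Adcy2* was read at 124, 128 and 145 CPM at ZT22 and at 144, 173 and 119 at ZT2. At the other timepoints its 12 replicates lay between 56.7 and 88.0 CPM, all below the lowest replicate at ZT22 and ZT2. The mean at ZT2, 145 ± 27.0 CPM, was 2.26-fold that at ZT18, 64.4 ± 9.74 (adjusted p = 9.13e-05, edgeR), and JTK_CYCLE placed its peak at ZT2 with an exact p of 0.0178. That p did not pass once it was adjusted over all genes, or without ZT2 replicate B (exact p = 0.0662). *Adcy2* and *Adcy3* ran opposite to each other, with r = -0.83 over the 18 replicates, which share the pairing of timepoints.

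*Adcy7* was a low gene, at 2.01 to 20.4 CPM. It stood at 2.01, 4.09 and 4.43 CPM at ZT14 against 10.7, 8.74 and 20.3 at ZT18, and at 6.20, 2.53 and 7.10 at ZT22 against 18.2, 7.06 and 9.98 at ZT2. At ZT6 it was read at 5.55, 7.01 and 20.4 CPM and at ZT10 at 4.85, 3.56 and 5.33. The highest level at ZT6, ZT18 and ZT2 thus came from a single replicate each, while the 3 replicates of ZT10 lay close together. The change with time passed (adjusted p = 0.0280, edgeR), but not without ZT10 replicate B (0.0516) or without ZT14 replicate A (0.0637). *Adcy4* was the lowest of the 9, at 0 to 5.38 CPM, with 0 reads in ZT6 replicate B (which allows up to 0.135 CPM). Replicates of 1 timepoint spread widely, such as 5.38, 1.51 and 0.825 CPM at ZT14, and no change with time passed (adjusted p = 0.976, edgeR).

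Of the forms that calcium restrains, *Adcy5* was read at 243, 289 and 86.2 CPM at ZT14 and at 109.8, 82.7 and 164 at ZT18. It lay between 98.9 and 129 CPM at ZT22 and ZT2, and between 43.7 and 60.7 at ZT6 and ZT10. All replicates at ZT6 and ZT10 were below all others, while ZT14 replicate C fell among those of ZT18, far below the other replicates of ZT14. The mean was 206 ± 106 CPM at ZT14 and 53.3 ± 8.74 at ZT6, a ratio of 3.86 (adjusted p = 0.000389, edgeR). *Adcy6* ranged from 14.2 ± 0.956 CPM at ZT6 to 25.0 ± 5.07 at ZT14 and did not pass (adjusted p = 0.355, edgeR).

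*Adcy9*, the remaining form, was read at 24.2, 41.3 and 44.9 CPM at ZT22 and at 31.9, 20.5 and 23.01 at ZT14. It stood at 25.9, 19.3 and 19.8 CPM at ZT2, at 8.16, 17.3 and 5.07 at ZT18, at 5.25, 14.8 and 8.47 at ZT6 and at 11.8, 12.2 and 11.99 at ZT10. As with *Adcy1*, ZT14 lay above ZT18 without overlap and ZT22 was the highest timepoint with replicate A the lowest of its 3. The mean at ZT22, 36.8 ± 11.1 CPM, was 3.87-fold that at ZT6, 9.50 ± 4.85 (adjusted p = 0.00228, edgeR). *Adcy1* and *Adcy9* had r = 0.73 over the 18 replicates.

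**Figure D3:**
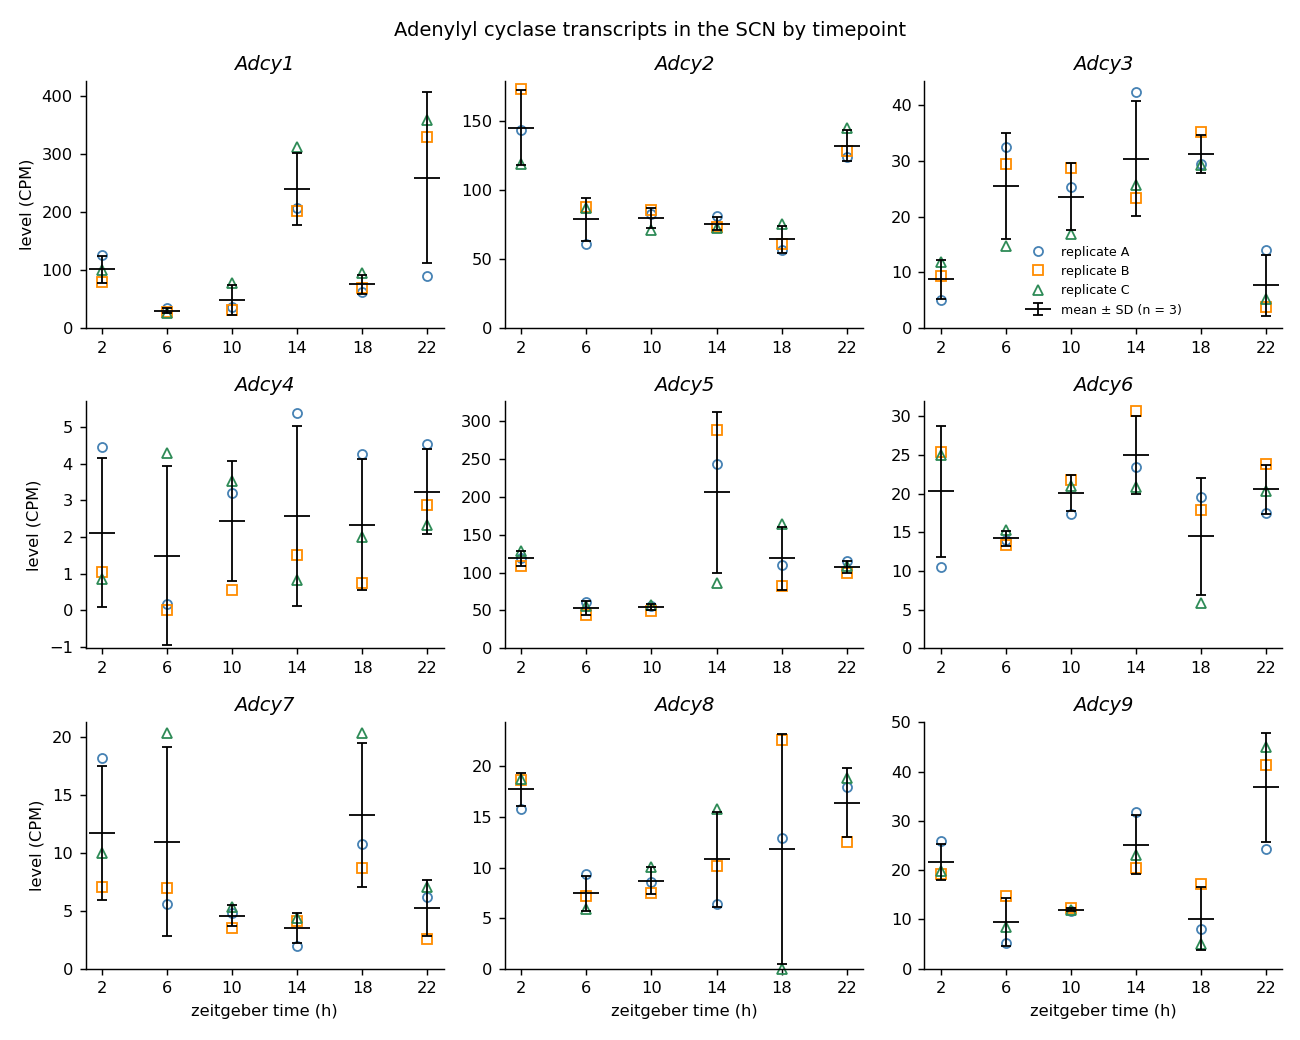
Level of each of the 9 adenylyl cyclases in CPM against zeitgeber time in hours, 1 panel per gene with its own scale, with 1 symbol per replicate (A, B, C) and a bar for the mean ± SD of 3. *Adcy1* and *Adcy9* are highest at ZT14 and ZT22, *Adcy2* at ZT22 and ZT2, *Adcy3* is lowest at ZT22 and ZT2, and *Adcy8* has 1 replicate at 0 at ZT18.

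The genes differed in how much of their change lay between the 3 pairs of timepoints, where time and batch cannot be told apart. The pairs took up 98.7% of the variance of the 6 timepoint means for *Adcy3*, 96.8% for *Adcy2* and 90.4% for *Adcy5*, against a median of 90.3% over all genes that changed with time. They took up 69.9% for *Adcy1*, 59.2% for *Adcy9* and 1.21% for *Adcy7*. The high level of *Adcy2* and the low level of *Adcy3* were thus shared by both ZT22 and ZT2, and the low level of *Adcy5* by both ZT6 and ZT10. The high mean of *Adcy5* at ZT14 was not shared by ZT18, where 119 ± 41.6 CPM lay beside 119 ± 10.2 at ZT2 and 108 ± 8.17 at ZT22.

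Comparisons inside each of the 3 pairs were made from the same fit. A joint test of the 3 differences called 0 of the 9 cyclases and 0.116% of all tested genes (edgeR), while *Adcy1*, *Adcy7* and *Adcy9* had an unadjusted p below 0.05 and DESeq2 called 2, *Adcy1* and *Adcy7*. Of all tested genes, 11.7% had such a p and DESeq2 called 4.17%. From ZT18 to ZT14, *Adcy1* differed by 1.67 ± 0.41 (log2, SE), *Adcy9* by 1.30 ± 0.41 and *Adcy5* by 0.79 ± 0.32, and *Adcy7* by -1.92 ± 0.57. The replicates of *Adcy1*, *Adcy9*, *Adcy7* and *Adcy6* did not overlap between ZT14 and ZT18, and those of *Adcy6* and *Adcy7* did not overlap between ZT6 and ZT10 either. The share of all tested genes without such overlap was not counted, so this only describes the values. Between ZT14 and ZT18, *Adcy6* had an unadjusted p of 0.0522 (edgeR). With adjustment over all genes, 0 of the 9 passed (edgeR, adjusted p = 0.0742 for *Adcy1*, 0.123 for *Adcy7* and 0.151 for *Adcy9*), against 0.570% of all tested genes. Before adjustment 4 of the 9 had p below 0.05 (*Adcy1*, *Adcy5*, *Adcy7* and *Adcy9*), and DESeq2 called *Adcy1*, *Adcy7* and *Adcy9*, with adjusted p of 0.00596, 0.0173 and 0.0398. The shares of all tested genes were 13.5% with p below 0.05 in edgeR and 4.46% called by DESeq2. *Adcy1* also passed in edgeR under both other filters on low counts. With each of the 18 replicates left out in turn it passed in 1, without ZT22 replicate A (adjusted p = 0.0201), and the adjusted p reached 0.226. In edgeR it did not pass with DESeq2's size factors (adjusted p = 0.0879), the replicate block (0.0729) or the reads recovered from the normalized values (0.0745).

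Between ZT22 and ZT2, *Adcy1* differed by 1.36 ± 0.41, *Adcy9* by 0.77 ± 0.41 and *Adcy7* by -1.15 ± 0.55 (log2, SE), each in the direction it had between ZT14 and ZT18, and the replicates overlapped for each. Neither edgeR nor DESeq2 called any of the 9 (0 of 9, against 0.0317% of all tested genes in edgeR and 0.180% in DESeq2), and 1, *Adcy1*, had an unadjusted p below 0.05 in edgeR, as did 3.59% of all tested genes. *Adcy2*, *Adcy3*, *Adcy5* and *Adcy8* differed by between -0.20 and -0.11, within their standard errors. Between ZT6 and ZT10, 0 of the 9 passed in edgeR or DESeq2, against 0.0475% of all tested genes in edgeR and 1.33% in DESeq2. An unadjusted p below 0.05 in edgeR was found for 1 of the 9, *Adcy7* (1.26 ± 0.56), and for 10.8% of all tested genes.

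The mean of ZT14 and ZT22 was then set against the mean of ZT18 and ZT2, a contrast that was chosen because a pattern of 2 peaks at ZT14 and ZT22 had been described in these libraries. *Adcy1* was higher at ZT14 and ZT22 by 1.51 ± 0.29 (log2, SE), with 249 ± 102 CPM against 88.2 ± 22.8 (SD, n = 6 each), and passed in edgeR with an adjusted p of 0.0463. It was the only cyclase called, against 0.148% of all tested genes. The call is at the threshold, since it held in only 4 when each of the 18 replicates was left out in turn, and the adjusted p ran from 0.00247 to 0.173, while the difference stayed between 1.36 and 1.72. *Adcy9* was higher by 1.03 ± 0.29 and *Adcy7* lower, at -1.53 ± 0.40, with adjusted p of 0.140 and 0.107 in edgeR and of 0.0243 and 0.00673 in DESeq2, which called 2.43% of all tested genes. The median difference was 0.33 over the 9 cyclases and 0.01 over all tested genes. The contrast used the same libraries as the differences inside the pairs, and adds no independent evidence to them.

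**Figure D4:**
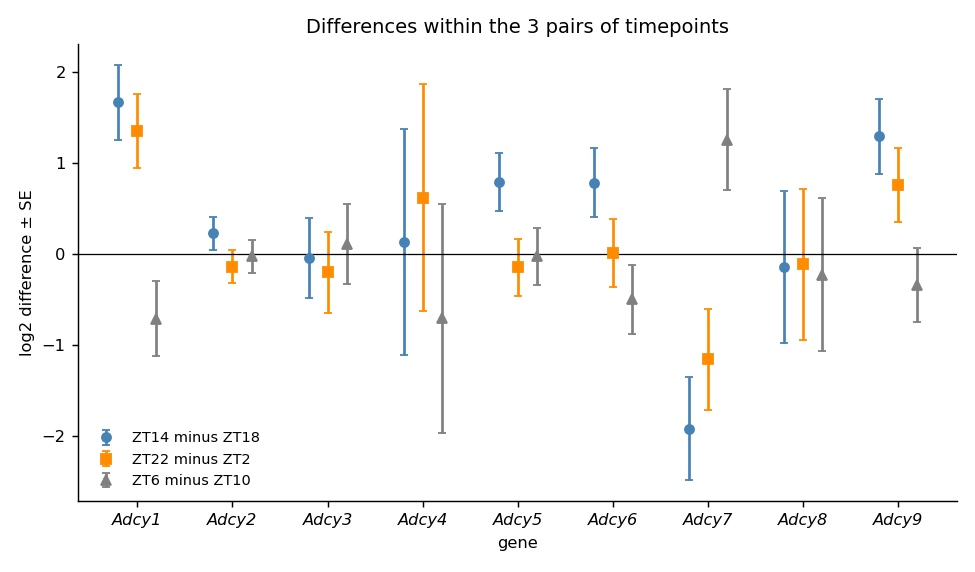
Log2 difference ± SE of each adenylyl cyclase between the timepoints of each pair (ZT14 minus ZT18, ZT22 minus ZT2, ZT6 minus ZT10; edgeR, 3 replicates a timepoint). *Adcy1* and *Adcy9* lie above 0 and *Adcy7* below 0 in both of the first comparisons, while *Adcy2* and *Adcy3* stay within 0.23 of 0 in all 3.

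Markers of telencephalic excitatory neurons moved with *Adcy1*. Of the 5 markers used (*Slc17a7*, *Neurod2*, *Neurod6*, *Tbr1* and *Emx1*), 5 were tested, 3 changed with time and 5 of 5 were higher at ZT14 and ZT22 than at ZT18 and ZT2, of which 1, *Slc17a7*, passed (adjusted p = 0.0262, edgeR). *Neurod2* and *Emx1* had 0 reads in 1 replicate each. Their summed level ran from 89.5 to 197 CPM at ZT14, 24.8 to 45.0 at ZT18, 51.6 to 213 at ZT22, 33.1 to 71.2 at ZT2, 14.2 to 19.3 at ZT6 and 38.9 to 73.6 at ZT10. The replicate at ZT22 with low *Adcy1*, replicate A, had the lowest marker sum of that timepoint, 51.6 CPM, against 213 and 154 in replicates B and C. Over the 18 replicates, log2 *Adcy1* and the log2 marker sum had r = 0.92, and r = 0.89 after the timepoint means were taken out. For *Adcy9* these values were 0.71 and 0.11, for *Adcy3* -0.42 and -0.55, and for *Adcy7* -0.48 and 0.04. The other 5 lay between 0.16 and 0.46 over the replicates and between -0.28 and -0.11 after the timepoint means were taken out. Of the 8 SCN neuron markers, 6 changed with time themselves, and their sum was 4964 ± 165 CPM at ZT6 and 1869 ± 339 at ZT14. That sum had r = -0.83 with *Adcy1* over the 18 replicates, which share their timepoints, and -0.50 after the timepoint means were taken out. For *Adcy5* these values were -0.73 and 0.41. *Adcy1* moved with other marker sums too, at r = 0.67 and 0.67 for astrocytes, 0.76 and 0.34 for microglia and 0.56 and 0.36 for oligodendrocytes. For endothelial cells the values were 0.10 and 0.20, and for neighbouring hypothalamic neurons -0.40 and -0.58.

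The 3 replicates highest in these markers (ZT22 B, ZT22 C and ZT14 C) were then left out. That leaves ZT22 with 1 replicate, whose spread was taken to be that of the others. They are also the replicates with the highest *Adcy1* (329.7, 357 and 311 CPM), so a smaller *Adcy1* contrast followed from the choice itself. Without them, the difference of *Adcy1* between ZT14 and ZT18 was 1.44 and that between ZT22 and ZT2 was -0.17. The contrast of ZT14 and ZT22 with ZT18 and ZT2 was 0.63 for *Adcy1*. The change of *Adcy1* with time still passed (adjusted p = 0.00031), as did those of *Adcy2*, *Adcy3* and *Adcy5*, but not those of *Adcy7* (0.0840) and *Adcy9* (0.0712), in a fit that called 31.7% of all genes. *Adcy7* kept its direction in both pairs, with -2.12 between ZT14 and ZT18 and -0.92 between ZT22 and ZT2. *Adcy9* differed by 1.36 between ZT14 and ZT18 but by only 0.16 between ZT22 and ZT2, where all 18 replicates gave 1.30 and 0.77. The part of tissue from outside the SCN in the level of *Adcy1* was not tested.

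**Figure D5:**
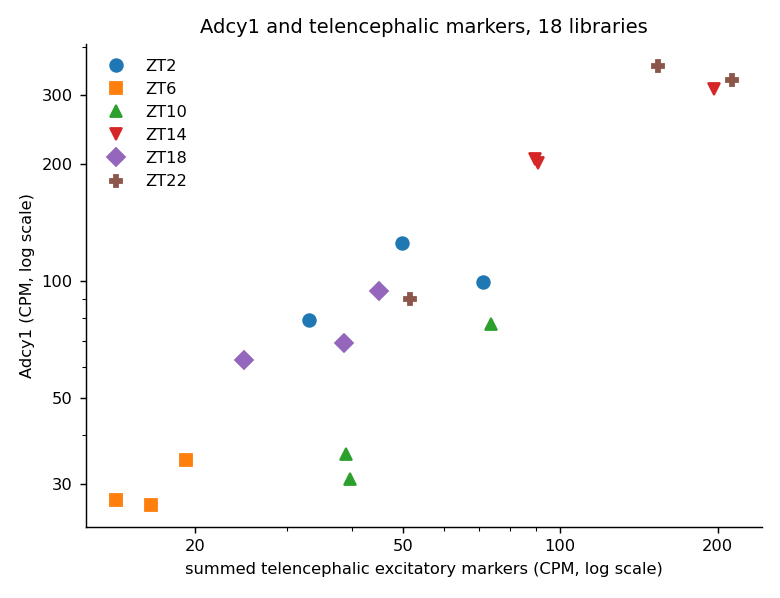
Level of *Adcy1* in CPM against the summed level of 5 telencephalic excitatory neuron markers in CPM, both on log scales, 1 symbol per replicate for 18 replicates of 6 timepoints. The 5 replicates with the highest *Adcy1*, all 3 of ZT14 and B and C of ZT22, also have the 5 highest marker sums, from 89.5 to 213 CPM.

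Markers of glia also moved with time. The 6 astrocyte markers summed to 1640.3 to 2304 CPM at ZT6 and ZT10 and to 3558 to 5235 at ZT22 and ZT2, where *Adcy2* was highest. The 6 oligodendrocyte markers summed to 4716 to 6071 CPM at ZT14 and ZT18 and to 1267 to 4409 elsewhere. All 6 markers of each list changed with time and none was at 0 in any replicate. After the timepoint means were taken out, log2 *Adcy2* had r = 0.15 with the astrocyte sum and r = -0.78 with the oligodendrocyte sum, and log2 *Adcy5* had r = -0.39 and 0.00228 (18 replicates). The part of these markers in the levels of the cyclases was not tested. Microglia markers (6 of 6 changed) summed to 87.9 to 241 CPM, endothelial markers (4 of 6 changed) to 53.3 to 124 CPM, and markers of neighbouring hypothalamic neurons (7 of 8 tested, 3 changed) to 17.8 to 88.7 CPM over the 18 replicates.

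The rest of the pathway, from G proteins to the targets of cAMP, was counted with the same test in 10 lists of 41 genes, of which 40 were tested. Of these, 27 changed with time and 21 were called cycling, against 44.0% and 29.8% of all tested genes. Between ZT14 and ZT18, where 0.570% of all tested genes passed, 1 did, *Pkib*, an inhibitor of PKA, which fell from ZT18 to ZT14. Both stimulatory alpha subunits changed, with different timing: *Gnas* was higher at ZT6 (410.2 ± 65.5 CPM) than at ZT14 (229 ± 10.5), and *Gnal*, the form of olfactory and striatal neurons, was higher at ZT14 (121 ± 55.0) than at ZT10 (42.0 ± 16.9). All 5 inhibitory alpha subunits changed, such as *Gnaz*, which rose from 27.5 ± 2.25 CPM at ZT2 to 79.2 ± 4.46 at ZT6. Of the 4 beta subunits tested, 3 changed, and *Gnb2* rose from 34.3 ± 12.95 CPM at ZT2 to 201 ± 52.6 at ZT6, but *Gnb1*, the highest in CPM, did not pass (adjusted p = 0.752, edgeR).

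The calmodulin genes *Calm2* and *Calm3* both changed. *Calm3* stood at 229.9 ± 30.6 CPM at ZT2 and 812 ± 44.9 at ZT6, whereas *Calm2* was highest at ZT22 (4289 ± 809.6 CPM) and lowest at ZT18 (2132 ± 184). The catalytic subunits of PKA ran opposite to each other, with *Prkaca* at 123 ± 18.7 CPM at ZT10 and 63.8 ± 11.4 at ZT2, and *Prkacb* at 271 ± 23.4 and 769 ± 192. Of the 4 regulatory subunits 3 changed (all but *Prkar2b*), of the 3 PKA inhibitors 2 (*Pkib* and *Pkig*), and of the 2 Epac genes 1, *Rapgef4*, which was lowest at ZT10 (54.6 ± 19.9 CPM) and highest at ZT2 (189 ± 46.5).

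Of the 12 receptors coupled to the stimulatory G protein, 4 changed, against 44.0% of all tested genes. The receptor of PACAP, *Adcyap1r1*, was highest at ZT2 (237 ± 52.0 CPM) and lowest at ZT6 (97.8 ± 23.6), which is also where the cyclase sum was lowest, and the dopamine receptor *Drd5* was highest at ZT18 (22.9 ± 11.2 CPM). Of the 4 other genes tied to cyclases by name, *Cap1*, *Cap2* (cyclase-associated actin regulators) and *Adcyap1* (PACAP) changed. The soluble, bicarbonate-stimulated cyclase *Adcy10* was read at a mean of 0.726 CPM over the 18 replicates, or 0.0831 CPM per kb, below all 9 membrane-bound forms, and did not pass (adjusted p = 0.284, edgeR). As with *Adcy2* and *Adcy3*, changes shared by the timepoints of a pair made up 99.4% of the variance of timepoint means for *Rapgef4* and 98.4% for *Prkacb*. The share was 97.4% for *Gnb2* and *Calm3*, 97.1% for *Gnaz*, 95.2% for *Gnas*, 93.5% for *Prkaca*, 91.6% for *Calm2* and 91.3% for *Adcyap1r1*. It was lower for *Gnal* (84.4%), *Pkib* (77.0%) and *Drd5* (69.3%), beside a median of 90.3% over all genes that changed. Time and batch cannot be told apart in the part of a change that lies between pairs.

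The genes most like the leading and the most changed cyclase were found by the correlation of log2 CPM over the 18 replicates, among 15758 other genes that had 10 or more counts on average. Nearest to *Adcy1* were *Lynx1*, which encodes a modulator of nicotinic receptors (r = 0.97), *Wipf3* (r = 0.97) and *Enc1* (r = 0.95). Nearest to *Adcy2* were *Appbp2* (r = 0.94), *Fem1b* (r = 0.93) and *Nap1l2* (r = 0.93). The replicates share their timepoints and pairs, and these values only describe likeness of pattern.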

How the data were processed

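RNA from laser-captured SCN of C3H/HeH mice was measured at 6 timepoints, with 3 pooled replicates each and 3 lanes per replicate (54 lane samples). Per the labels, reads were aligned to mm10 by GSNAP and assigned to Ensembl genes by HTSeq 0.5.4p1. The authors counted reads per gene and deposited whole-number counts, not normalized, with the lanes combined into 18 columns, all used (0 columns left out). A second deposited table holds a normalized signal, the counts divided by a size factor per column by the authors with DESeq2. All of its values (100% at a tolerance of 0.1) were whole multiples of 1 step, and the recovered reads served as an alternative. They equalled the counts for 93.3% to 94.9% of genes at ZT2, ZT14, ZT18 and ZT22 but for 8.76% to 12.2% at ZT6 and ZT10, where the cyclases' recovered reads were 0.747 to 1 times their counts.

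The 18941 genes read in over 6 replicates (1 read or more) were tested with edgeR 4.0.16 (R 4.3.3; TMM, quasi-likelihood F-test, 1 fit to 18 replicates, Benjamini–Hochberg over all tested genes, threshold 0.05). JTK_CYCLE was written anew in Python 3.11.15 (numpy 2.4.6, scipy 1.17.1, pandas 2.3.3; period 24 hr, 6 lags, exact null, Bonferroni over lags), and cycling genes had to pass it and the time test. Log2 CPM used a prior count of 2. Scripts were tested on simulated data. Symbols and lengths come from GENCODE M21, which named 97.2% of the identifiers. Alternatives were DESeq2 1.42.0, its size factors, a minimum of 10 counts per replicate, no filter beyond 1 read, the recovered reads, each replicate left out, a block for the replicate letter, cosinor regression (limma 3.58.1), other lengths and, chosen after seeing the data, leaving out the 3 replicates highest in telencephalic markers. Plots were drawn with matplotlib 3.10.9. All 9 cyclases are named. Of the other pathway genes, lists of 5 or fewer could be named in full and longer ones by the 2 smallest time-test p that passed. From the fixed lists, 1 marker and 1 pathway gene are not reported here and entered no sum or count of a list. The members, lists and contrasts were chosen with earlier results of these data known. Counting error alone is covered by the limits given for 0 reads, since amplified reads are not independent molecules.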

Additional observations from a re-analysis of the deposited data

How the results depend on the processing

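DESeq2 in place of edgeR called 3 cyclases between ZT14 and ZT18, 3 in the contrast of ZT14 and ZT22 with ZT18 and ZT2, and 2 inside the pairs jointly, where edgeR called 0, 1 and 0. Of all tested genes it called 4.46%, 2.43% and 4.17%, against 0.570%, 0.148% and 0.116% in edgeR. With at least 10 counts in every replicate (7 cyclases left), and likewise with no filter beyond 1 read, 1 was called between ZT14 and ZT18 and 1 inside the pairs jointly (*Adcy1*). The call of *Adcy1* in the contrast of ZT14 and ZT22 with ZT18 and ZT2 was lost (0 called) with DESeq2's size factors (adjusted p = 0.0585). Without the 3 replicates highest in telencephalic markers, which are also the highest in *Adcy1*, its difference in that contrast was 0.63. With each of the 18 replicates left out in turn, 5 to 7 cyclases changed with time, 0 to 3 were called cycling, 0 to 1 in that contrast (called without ZT6 replicate A or C, ZT10 replicate C or ZT22 replicate A), 0 to 1 between ZT14 and ZT18 and 0 to 1 inside the pairs jointly, 0 between ZT22 and ZT2 and 0 between ZT6 and ZT10. Cosinor regression in place of JTK_CYCLE, with its p adjusted over all genes, called 3 cycling (*Adcy1*, *Adcy2* and *Adcy3*), and JTK_CYCLE p adjusted over genes 0. The main JTK_CYCLE p was adjusted over its lags only, so the thresholds are unlike. *Adcy5* had a cosinor p of 0.0215 before and 0.0530 after adjustment. Except for DESeq2, the shares of all tested genes called under the alternatives here are not given, so these counts have no background beside them. *Adcy3* was also called cycling without ZT6 replicate A or B or ZT14 replicate B or C, *Adcy1* without ZT18 replicate A or B, *Adcy5* without ZT18 replicate B and *Adcy8* without ZT18 replicate C. With coding length the share of *Adcy2* fell from 38.6% to 27.0%, and the log2 ratio of *Adcy5* to *Adcy1* turned from 0.91 to -0.071. Of the 8 pairs, kept in the order by merged exons, 3 differed in place of 5. Pairs that are neighbours only by coding length, such as *Adcy1* and *Adcy2*, were not compared. Merged-exon and coding lengths differ because *Adcy1* has long untranslated exons. The causes of the other changes were not tested. The share of *Adcy2* stayed between 37.7% and 39.7% with 1 replicate left out, and 5 neighbouring pairs differed, or 6 without ZT18 replicate C. With reads recovered from the normalized table, each count of called cyclases was the same. Low reads limit *Adcy4* (0 to 193 a replicate) and *Adcy7* (69 to 431).

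The letters A, B and C recur at each timepoint, but nothing says that they mark a shared day or batch. Deviations of same-letter replicates from their timepoint means had r between -0.19 and 0.10 (median -0.00298, 45 pairs, 1 over 0.1), so the letters were not taken as pairing. With the replicate block, 6 cyclases changed with time, 1 was called cycling, and 0 in the contrast of ZT14 and ZT22 with ZT18 and ZT2 (*Adcy1*, adjusted p = 0.0531).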
